A study of Mus musculus with 32 samples.

Results

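The microRNAs that remained when the imprinted Mir379 to Mir410 cluster was deleted were followed in the small RNA-seq libraries of induced neurons (iN), 6 of the 32 samples of the series. The deletion iN group had the genotype Mirg(Δ/+) and 3 replicates, A to C. The control iN group had the genotype Mirg(fl/+) and also 3 replicates. Both came from hybrid mouse embryonic stem cells (ESC), in which the maternal copy of the cluster was the one deleted, and both were made into neurons by doxycycline induction of a TetO-Ngn2 transgene, with collection on day 10. The labels do not say whether replicates are separate clones or separate cultures, so p-values measure the spread between these libraries, which may be technical. Members were all features with a mature microRNA accession, 1907 in all. Of these, 433 passed the minimum on counts and were tested, 573 had some counts but did not pass, and 901 had no count in any of the 6 libraries. The features that were not tested held 0.0881% of mature counts. Levels are given as CPM, the count scaled to a library total of 1000000 mature microRNA counts after normalisation by the trimmed mean of M values (TMM).

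A microRNA is cut from a hairpin transcript, and the mature strand guides Argonaute to messages paired mainly through bases 2 to 8, the seed. Hairpins often sit in clusters that are transcribed together, so members of one cluster tend to share a tissue pattern. The Dlk1-Dio3 imprinted domain on mouse chromosome 12 expresses Meg3, Rian and Mirg and their microRNAs from the maternal copy, and the Mir379 to Mir410 cluster is known for its expression in neurons.

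The neuronal label was checked against RNA-seq libraries of the same 2 groups. The 11 neuron markers summed to 8541 to 8646 CPM in deletion iN and 8272 to 8281 CPM in control iN. The 8 pluripotency markers summed to 5.37 to 5.83 CPM in deletion iN and 8.84 to 9.54 CPM in control iN, with Nanog, Tdgf1, Dppa5a, Fgf4 and Sox2 below 1 CPM in every library. The 5 neural progenitor markers summed to 22.2 to 28.1 CPM in deletion iN and 11.9 to 15.2 CPM in control iN. The 5 astrocyte and oligodendrocyte markers summed to 4.46 to 5.42 CPM in deletion iN and 3.96 to 6.50 CPM in control iN, with Gfap at 0 in every library. The 7 fibroblast and mesenchyme markers summed to 86.0 to 94.7 CPM in deletion iN and 66.9 to 76.9 CPM in control iN, with Lum at 0. The part of these differences in the microRNA results was not tested. Small RNA libraries held 881562 to 983710.1 mature microRNA counts in deletion iN and 1325316 to 1532230 in control iN.

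The sequences below are those of the microRNAs outside the cluster that the results turn on, from RefSeq on build GRCm38.p6, written 5′ to 3′ with the seed in capitals. The first 3 are members of the miR-200 family, followed by miR-205-5p, which has another seed; all of them fell.
miR-429-3p: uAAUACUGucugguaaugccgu
miR-200b-3p: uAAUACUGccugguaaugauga
miR-200a-3p: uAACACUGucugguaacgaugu
miR-205-5p: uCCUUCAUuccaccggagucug
The next set holds stem cell microRNAs of 2 genomic clusters that share 1 seed.
miR-302d-3p: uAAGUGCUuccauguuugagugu
miR-302b-3p: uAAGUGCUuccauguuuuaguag
miR-294-3p: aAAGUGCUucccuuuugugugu
The X-linked pair below shares another seed, and miR-93-5p, from a hairpin on chromosome 5, has the same seed as that pair.
miR-106a-5p: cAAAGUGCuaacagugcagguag
miR-20b-5p: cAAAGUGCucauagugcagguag
miR-93-5p: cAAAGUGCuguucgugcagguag
The microRNAs below, with other seeds, also changed.
miR-34a-5p: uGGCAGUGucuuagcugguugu
miR-216a-5p: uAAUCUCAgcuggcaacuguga
miR-217-5p: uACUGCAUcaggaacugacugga
miR-129-5p: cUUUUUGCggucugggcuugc
miR-138-1-3p: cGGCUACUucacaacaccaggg
The last pair is the one seed shared by a cluster microRNA, miR-410-3p, and a microRNA outside it that rose, miR-344d-3p.
miR-344d-3p: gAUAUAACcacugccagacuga
miR-410-3p: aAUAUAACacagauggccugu

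The deletion itself was first checked. All 51 tested microRNAs of the cluster fell in deletion iN, and the call rate over all 433 tested microRNAs was 41.1%. The share of mature counts that fell in the cluster was 0.0199, 0.0163 and 0.0195% in deletion iN, against 12.1, 12.4 and 12.8% in control iN. The most abundant, miR-382-5p, had 87.6, 78.5 and 77.0 CPM in deletion iN, against 41536, 41476 and 41725 CPM in control iN. In deletion iN, 24 of the 51 had no count, 7 had 1 to 3 counts over the 3 libraries, and 20 had more. With counts under 3 over the group set to 3, the median of the 51 was 261-fold lower, where the value of each microRNA at 0 is a lower bound.

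A microRNA just past the last hairpin of the cluster was lost as well. miR-3072-3p (chr12:109747928-109747949) lies beyond Mir410 and inside the annotated span of Mirg, and it was set apart from the other microRNAs after its values were seen. It had 0, 0 and 0 CPM in deletion iN, against 71.3, 59.6 and 61.9 CPM in control iN. Against a floor of 3 counts over the group it was at least 62.3-fold lower in deletion iN (edgeR quasi-likelihood test, adjusted p = 1.25e-12).

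Outside the cluster and miR-3072, 381 microRNAs were tested and 126 of them passed an adjusted p of 0.05 (edgeR quasi-likelihood test, Benjamini-Hochberg over all 433), which is 33.1%. Of these, 73 rose (19.2%) and 53 fell (13.9%) in deletion iN. The 433 include the deleted cluster and miR-3072, whose very small p-values loosen the cut-off for the others. The expected share of false calls among the 126 can therefore be above 0.05. Calls with an adjusted p close to 0.05 are the least certain, and an adjustment over the 381 alone was not made. Differences were small next to the loss of the cluster: 39 rose and 37 fell by more than 1.5-fold, and 12 rose and 18 fell by more than 2-fold. The libraries of the groups did not overlap for 167 of the 381 (43.8%), among them 119 of the called ones. Without control iN replicate A or without control iN replicate B, 42 rose.

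**Figure D1:**
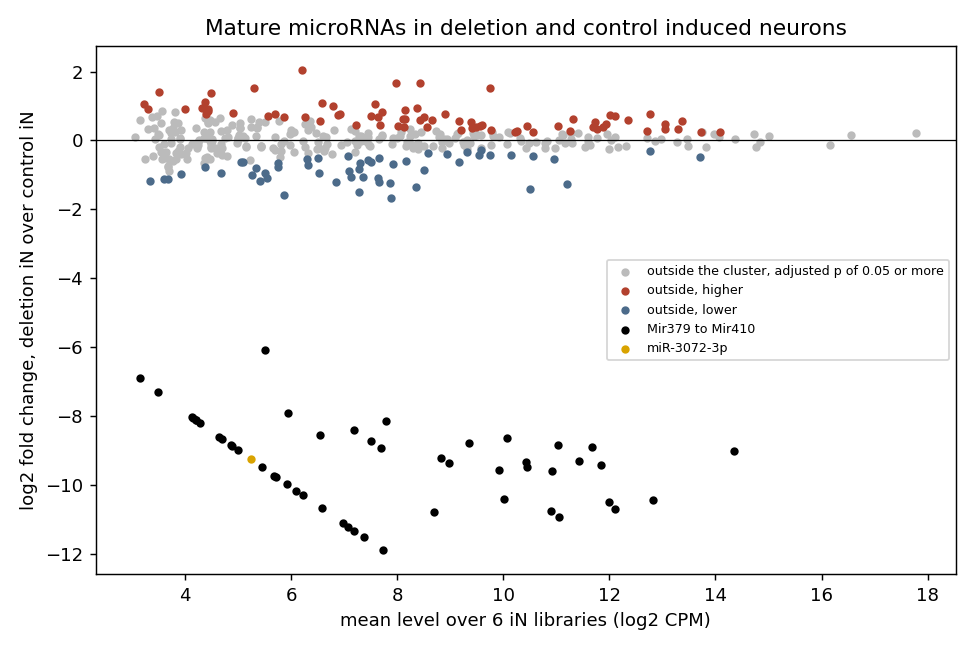
Mean level over the 6 iN libraries (x axis, log2 CPM) against the log2 fold change of deletion iN over control iN (y axis), 1 point per tested microRNA. The 51 cluster microRNAs and miR-3072-3p lie far below 0, where the fitted value of a microRNA with no count in deletion iN depends on the prior count, and the 73 higher and 53 lower microRNAs outside the cluster lie within about 2 log2 units of 0.

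The make-up of the small RNA differed between the groups, and the split between rises and falls changed with the scaling of the libraries. The share of all small RNA counts in mature microRNAs was 29.0, 30.1 and 29.4% in deletion iN, against 38.6, 37.0 and 37.5% in control iN. Without the cluster the shares were 29.0, 30.1 and 29.4% in deletion iN, against 34.0, 32.4 and 32.7% in control iN. Fragments of mitochondrial transcripts made up 14.5, 13.8 and 15.7% in deletion iN, against 5.49, 6.78 and 6.77% in control iN. Small nucleolar and Cajal body RNAs made up 7.27, 7.34 and 7.34% in deletion iN, against 9.20, 10.1 and 10.1% in control iN. Y, 7SK, 7SL, U and RNase RNAs made up 5.40, 5.47 and 5.30% in deletion iN, against 3.49, 3.35 and 2.82% in control iN. In these classes the groups did not overlap, and the exact two-sided permutation test of each gave p = 0.1, the smallest that 3 against 3 libraries can give. The median log2 fold change outside the cluster was 0.05 with TMM. It shifted by -0.27 when libraries were scaled to all small RNA counts, by -0.14 when scaled to the counts other than mitochondrial, and by 0.15 when scaled to small nucleolar RNA. Rises were 57.9% of the calls with TMM, 20.3% with scaling to all counts, 37.3% with scaling to the counts other than mitochondrial and 77.3% with scaling to small nucleolar RNA. They were 46.7% with no filter on low counts, 46.8% with TMM computed without the cluster and 48.9% with all 12 small RNA libraries in 1 fit. Changes below are on the TMM scale.

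**Figure D2:**
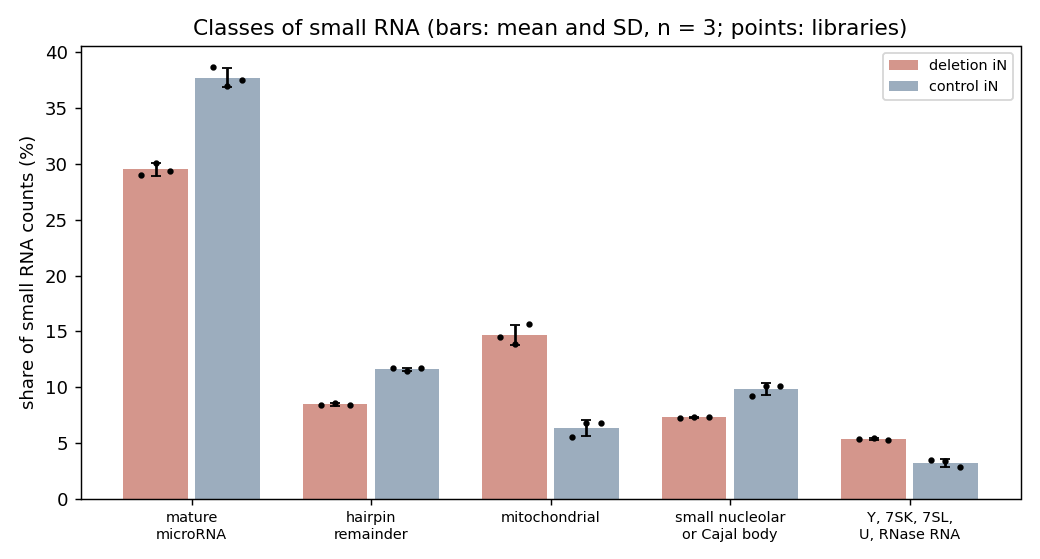
Share of all small RNA counts (y axis, %) in 5 classes of feature, with deletion iN left of control iN; bars give the mean and SD of 3 libraries and points the libraries. Mature microRNAs held 29.0% to 30.1% in deletion iN and 37.0% to 38.6% in control iN, while mitochondrial fragments were higher in deletion iN.

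Several of the largest rises lay together on chromosome 11. All 5 tested microRNAs of the miR-216 and miR-217 hairpins, known for their expression in exocrine pancreas, rose in deletion iN, beside 19.2% rises over all 381. Their median log2 fold change was 1.52 beside 0.05 over all 381. Summed over the 5, they had 1814, 2037 and 2253 CPM in deletion iN, against 648, 579 and 810.5 CPM in control iN. All 5 also rose under each of the 5 other scalings run, with medians of 1.25 to 1.68. miR-216a-5p (chr11:28757018-28757039), the most abundant, had 1148, 1349 and 1359 CPM in deletion iN, against 395, 362 and 585 CPM in control iN (log2 fold change 1.52, SE 0.13, adjusted p = 3.39e-11). miR-217-5p (chr11:28763761-28763783) had 454, 495 and 653 CPM in deletion iN, against 185, 153 and 168 CPM in control iN (log2 fold change 1.66, SE 0.14, adjusted p = 1.65e-11). The largest fold change was that of miR-216b-3p, with 103, 111 and 157 CPM in deletion iN, against 37.0, 28.3 and 24.3 CPM in control iN (log2 fold change 2.05, SE 0.22, adjusted p = 5.47e-09). Every deletion iN library lay above every control iN library for these 3. The minor arms miR-216a-3p and miR-217-3p rose too, by 1.51 on the log2 scale (adjusted p = 2.47e-05) and 1.37 on the log2 scale (adjusted p = 2.84e-04).

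Brain-enriched microRNAs, a list of 37 tested members, had 13 rises and 0 falls, beside 19.2% rises and 13.9% falls over all 381. The median log2 fold change was 0.26 beside 0.05 over all 381. With scaling to all counts 6 rose and 6 fell, and with scaling to the counts other than mitochondrial 9 rose and 0 fell. miR-138-1-3p, the minor arm of its hairpin, had 134, 141 and 123 CPM in deletion iN, against 58.9, 61.1 and 67.4 CPM in control iN (log2 fold change 1.09, SE 0.18, adjusted p = 8.49e-06). miR-129-5p, known for a role in neuronal excitability, had 389, 435 and 483 CPM in deletion iN, against 212, 239.8 and 231 CPM in control iN (log2 fold change 0.94, SE 0.12, adjusted p = 2.47e-07), and its partner arm miR-129-2-3p rose by 0.93 on the log2 scale (adjusted p = 0.00825). The call of miR-129-2-3p was lost without deletion iN replicate B or control iN replicate A. The groups did not overlap for any of these 3. miR-212-3p rose by 1.06 on the log2 scale (adjusted p = 0.0375) at a low level and lost its call without each of 5 libraries in turn. The other rises were those of miR-7a-5p, miR-7b-5p, miR-9-5p, miR-9-3p, miR-138-2-3p, miR-153-3p, miR-218-5p, miR-330-5p and miR-488-3p. These ranged from 0.34 for miR-218-5p to 0.77 for miR-7a-5p. The remaining 24 did not pass, miR-137-3p among them, with 29567, 31948 and 41671 CPM in deletion iN, against 32303, 29999 and 31388 CPM in control iN (log2 fold change 0.14, SE 0.11, adjusted p = 0.329). So was miR-138-5p, the strand known for a role in dendritic spines, at 0.24 on the log2 scale. miR-124-3p was at -0.04 and miR-128-3p at 0.03 on the log2 scale, and neither passed.

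Other rises with no list of their own included miR-6240, which had 370.4, 389 and 417 CPM in deletion iN, against 121, 121 and 127 CPM in control iN (log2 fold change 1.67, SE 0.13, adjusted p = 5.65e-12). miR-3099-3p had 265, 262 and 257 CPM in deletion iN, against 121, 121 and 136 CPM in control iN (log2 fold change 1.06, SE 0.14, adjusted p = 2.93e-07). miR-760-3p rose by 1.00 on the log2 scale (adjusted p = 2.10e-05), miR-1251-5p by 1.13 on the log2 scale (adjusted p = 0.00493), miR-30c-2-3p by 0.94 on the log2 scale (adjusted p = 0.0104) and miR-152-5p by 0.90 on the log2 scale (adjusted p = 0.0292). miR-1251-5p lost its call without deletion iN replicate C or control iN replicate A. miR-30c-2-3p lost its call without control iN replicate B, and miR-152-5p without each of 5 libraries in turn. The 3 tested strands with the miR-29 seed, a family that increases as neurons mature, all rose, by 0.47 to 0.71 on the log2 scale. Over all 381, 19.2% rose. This family is on no list. It was picked from the seed families with 3 or more tested strands, and in no other did every strand rise. Scaling to all counts shifted the median over all 381 by -0.27.

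Among let-7 microRNAs, which increase during differentiation, 2 of 12 rose and 1 fell, shares no higher than the 19.2% rises and 13.9% falls over all 381. For this list 0 rose and 3 fell with scaling to all counts and 6 rose and 0 fell with scaling to small nucleolar RNA. let-7f-5p had 4134, 4473 and 5106 CPM in deletion iN, against 3465, 3089 and 3351 CPM in control iN (log2 fold change 0.47, SE 0.09, adjusted p = 1.40e-04). let-7i-5p rose by 0.41 on the log2 scale (adjusted p = 0.0017) but lost its call without control iN replicate B. let-7d-3p, a passenger strand, fell by 0.77 on the log2 scale (adjusted p = 0.0475) and lost its call without each of 4 libraries in turn.

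**Figure D3:**
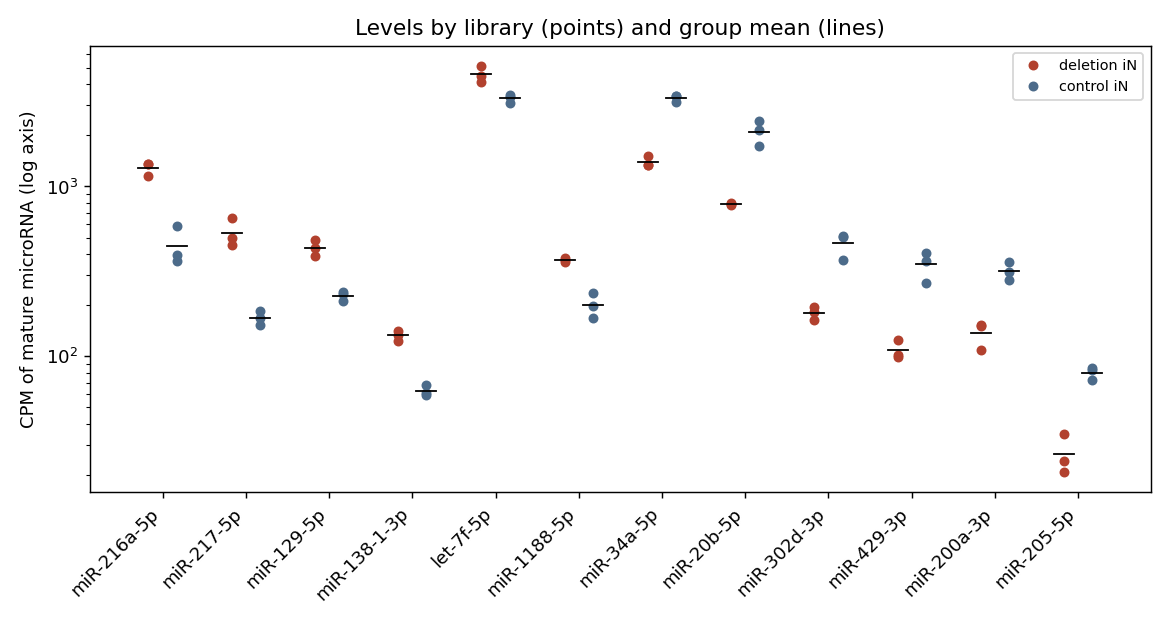
CPM on a log axis for 12 microRNAs outside the cluster, with deletion iN left of control iN; points are libraries and lines group means. The groups do not overlap for any of the 12, with the first 6 higher and the last 6 lower in deletion iN.

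The deepest falls outside the cluster included those of the miR-200 family and miR-205, microRNAs of epithelial cells that repress Zeb1 and Zeb2. All 6 tested members fell, with a median of -1.22, beside 13.9% falls and a median of 0.05 over all 381. Their sum was 539, 654 and 580.1 CPM in deletion iN, against 1541, 1346 and 1164 CPM in control iN. All 6 also fell under each of the 5 other scalings run, with medians of -1.49 to -1.07. In bulk libraries, fewer cells of a type and less RNA per cell cannot be told apart. miR-429-3p (chr4:156053916-156053937) had 102, 125 and 99.2 CPM in deletion iN, against 407, 363 and 272 CPM in control iN (log2 fold change -1.67, SE 0.16, adjusted p = 3.60e-10). miR-200a-3p and miR-200b-3p, from the same genomic cluster, also fell. miR-200a-3p had 109, 152 and 149.8 CPM in deletion iN, against 361, 315 and 282 CPM in control iN (log2 fold change -1.22, adjusted p = 6.57e-08). miR-200b-3p had 128, 123 and 103 CPM in deletion iN, against 306, 292 and 222 CPM in control iN (log2 fold change -1.21, adjusted p = 1.54e-07). miR-205-5p, at another locus, had 24.3, 20.9 and 34.8 CPM in deletion iN, against 85.7, 82.5 and 72.3 CPM in control iN (log2 fold change -1.59, SE 0.24, adjusted p = 1.84e-06). Every deletion iN library lay below every control iN library for these 4. In control ESC, scaled apart from iN, means were 4564 CPM for miR-429-3p and 2686 CPM for miR-200a-3p. There miR-200b-3p averaged 2107 CPM and miR-205-5p 1722 CPM, so all 4 were more abundant in control ESC than in control iN. miR-200c-3p and miR-141-3p, from a cluster on chromosome 6, fell by 0.93 and 0.61 on the log2 scale.

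MicroRNAs of pluripotent cells fell as well, beside 13.9% falls and a median of 0.05 over all 381. All 8 tested microRNAs of the miR-290 to miR-295 cluster fell, with a median of -1.08 (5 of 8 with scaling to small nucleolar RNA), and their sum was 591, 618 and 705 CPM in deletion iN, against 1381, 1178 and 1017 CPM in control iN. miR-291a-5p had 66.5, 62.6 and 71.7 CPM in deletion iN, against 189, 172 and 102 CPM in control iN (log2 fold change -1.20, SE 0.21, adjusted p = 1.55e-05). miR-294-3p had 23.2, 19.9 and 28.5 CPM in deletion iN, against 63.7, 68.0 and 32.0 CPM in control iN (log2 fold change -1.19, SE 0.28, adjusted p = 9.23e-04). The groups did not overlap in either, and control iN replicate C was the lowest control library in both. miR-292a-5p also fell, by 1.05 on the log2 scale. miR-290a-5p and miR-291b-5p, at under 21 CPM, lost their calls without each of 4 and of 3 libraries in turn, in that order. Of the miR-302 and miR-367 microRNAs, 4 of 5 fell, with a median of -1.07 over the 5, and the sum was 389, 456 and 481 CPM in deletion iN, against 1132, 1069 and 798 CPM in control iN. miR-302d-3p had 164, 182 and 196 CPM in deletion iN, against 512, 505 and 369.8 CPM in control iN (log2 fold change -1.36, SE 0.14, adjusted p = 1.49e-09), with miR-302b-3p at -1.08 on the log2 scale (adjusted p = 2.26e-06) and miR-302a-3p at -1.07 on the log2 scale (adjusted p = 5.45e-06). The pluripotency marker messages were lower in deletion iN too, as given above, and their part in these falls was not tested.

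Among miR-17 to 92 microRNAs and their paralogs, which promote proliferation, 8 of 17 fell and 0 rose, beside 13.9% falls and 19.2% rises over all 381. The 5 tested strands of the X-linked Mir106a to Mir363 cluster all fell, with a median of -1.10. miR-20b-5p had 784, 777 and 798 CPM in deletion iN, against 2441, 2142 and 1721 CPM in control iN (log2 fold change -1.42, SE 0.11, adjusted p = 2.00e-12). miR-106a-5p had 81.3, 71.5 and 83.3 CPM in deletion iN, against 234, 241 and 186 CPM in control iN (log2 fold change -1.48, SE 0.17, adjusted p = 8.65e-09). In control ESC, scaled apart from iN, miR-20b-5p averaged 46519 CPM and miR-106a-5p 11029 CPM. miR-18b-5p fell by 0.90 and miR-363-5p by 1.10 on the log2 scale. miR-93-5p, with the same seed as miR-20b-5p but another hairpin, had 18241, 17645 and 17375 CPM in deletion iN, against 18554, 16780.4 and 14767 CPM in control iN (log2 fold change 0.09, SE 0.10, adjusted p = 0.497), so the groups overlapped. None of the 4 tested strands of its own cluster, Mir25, Mir93 and Mir106b, passed the test.

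miR-34a-5p, a known target of p53, had 1329.7, 1346 and 1507 CPM in deletion iN, against 3404, 3405 and 3151 CPM in control iN (log2 fold change -1.25, SE 0.09, adjusted p = 9.69e-13), a fall of 2.38-fold with no overlap. miR-34c-5p also fell, with 99.2, 141 and 117 CPM in deletion iN, against 181, 168 and 215 CPM in control iN (log2 fold change -0.66, SE 0.16, adjusted p = 0.00157). The other 4 of the 6 tested strands of this family did not pass.

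**Figure D4:**
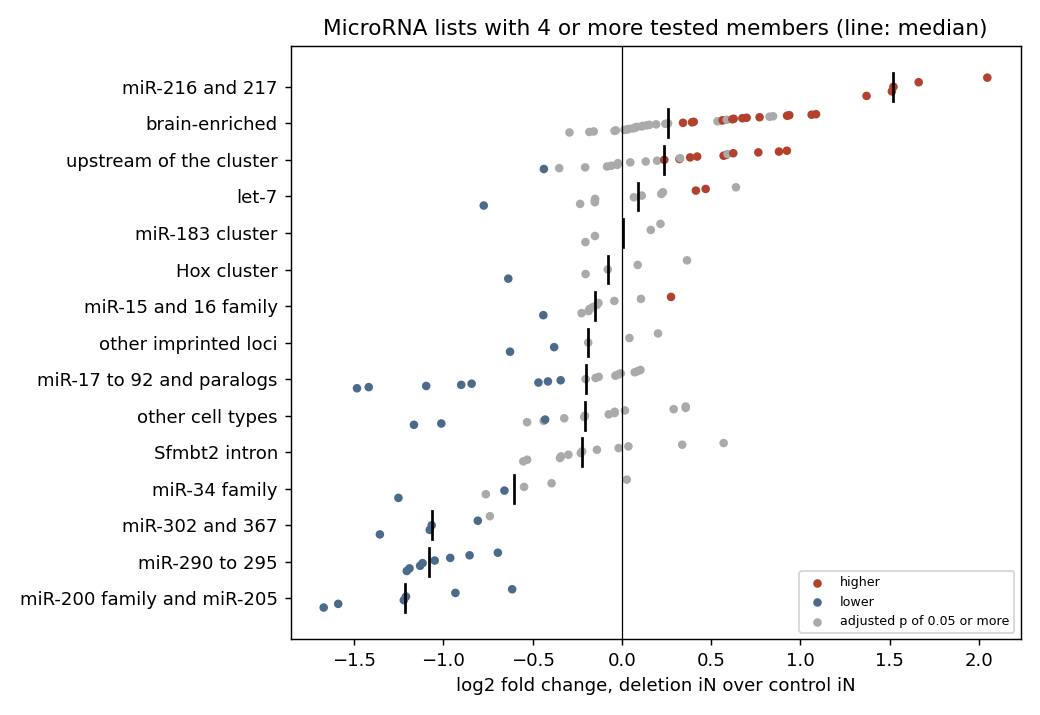
Log2 fold change of deletion iN over control iN (x axis) for each tested microRNA (points) in lists with 4 or more tested members, sorted by their median (line). All tested members of the miR-216 and miR-217 list were higher, and all of the miR-200 and miR-205 and of the miR-290 to miR-295 lists were lower.

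Some lists moved little or in part. miR-142a-3p, of blood cells, had 17.9, 21.9 and 30.6 CPM in deletion iN, against 45.9, 50.4 and 45.9 CPM in control iN (log2 fold change -1.01, SE 0.25, adjusted p = 0.0015). It was 1 of 3 falls among 15 microRNAs of other cell types, beside 13.9% falls over all 381, with miR-199b-5p at -1.16 on the log2 scale (adjusted p = 0.0232) and miR-133a-3p, of muscle, at -0.43 on the log2 scale (adjusted p = 8.09e-04). miR-199b-5p lost its call without deletion iN replicate A or C. Of the 15, 9 fell with scaling to all counts, 4 with scaling to the counts other than mitochondrial and 2 with scaling to small nucleolar RNA. In ESC, miR-142a-3p passed as lower too (log2 fold change -1.37, edgeR quasi-likelihood test, adjusted p = 0.0139). Its means there were 1804 CPM in deletion ESC and 4674 CPM in control ESC, and its effect did not differ between the cell types (adjusted p = 0.758). At other imprinted loci, 2 of 5 fell, while 1 rose and 1 fell with scaling to small nucleolar RNA. These were miR-296-5p (log2 fold change -0.63, adjusted p = 2.24e-05) and miR-335-3p (log2 fold change -0.38, adjusted p = 0.00656), and miR-335-3p lost its call without deletion iN replicate B. Both are the less abundant arms of their hairpins. The more abundant arms, miR-296-3p at 0.20 and miR-335-5p at -0.19 on the log2 scale, did not pass. The miR-15 and 16 family had 1 rise and 1 fall among 10, and 0 rises and 5 falls with scaling to all counts. miR-322-5p rose (log2 fold change 0.28, adjusted p = 0.015) and miR-497a-5p fell (log2 fold change -0.44, adjusted p = 0.0274). miR-322-5p lost its call without control iN replicate A or B, and miR-497a-5p without each of 3 libraries in turn. miR-615-3p was the single fall of 5 in the Hox cluster list (log2 fold change -0.64, adjusted p = 0.045), and its call was lost without each of 5 libraries in turn. None of the 12 tested microRNAs of the Sfmbt2 intron, of the 4 in the miR-183 cluster, of the 2 strands of miR-33 or of the 1 tested X-linked miR-465 to miR-743 member passed. With scaling to all counts 3 of the Sfmbt2 intron and 1 of the miR-183 cluster fell. With scaling to small nucleolar RNA 2 of the Sfmbt2 intron, 2 of the miR-183 cluster and 1 strand of miR-33 rose.

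Of the 12 with the highest mean level, miR-382-5p is in the deleted cluster and 1 of the other 11 passed, beside 33.1% over all 381. miR-182-5p, of the sensory miR-183 cluster, had 223169, 246566 and 260509 CPM in deletion iN, against 218794, 202824 and 207060.0 CPM in control iN (log2 fold change 0.22, SE 0.11, adjusted p = 0.111). Its deletion iN libraries all lay above its control iN libraries, but it did not pass. miR-183-5p had 86683, 103030.0 and 116618 CPM in deletion iN, against 96908, 85579.8 and 91344 CPM in control iN. miR-16-5p had 63567, 69872 and 74943 CPM in deletion iN, against 86197, 73655 and 69866 CPM in control iN. The groups overlapped for miR-183-5p and miR-16-5p, and neither passed. miR-191-5p rose by 0.24 on the log2 scale (adjusted p = 0.0461), lost its call without each of 5 libraries in turn, and stood at -0.023 (adjusted p = 0.87) when libraries were scaled to all counts. miR-103-3p, miR-335-5p, miR-127-3p, miR-27b-3p, miR-93-5p and miR-125b-5p had log2 fold changes between -0.19 and 0.20.

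MicroRNAs between Meg3 and the cluster, on the same imprinted chromosome segment, remained in deletion iN. Of 23 tested, 10 rose and 1 fell, beside 19.2% rises and 13.9% falls over all 381. The median was 0.24 beside 0.05 over all 381, and the sum was 75500.1, 77563 and 75026 CPM in deletion iN, against 61454, 63452 and 69248 CPM in control iN. miR-1188-5p (chr12:109611841-109611861) had 369, 381 and 359 CPM in deletion iN, against 197, 169 and 236 CPM in control iN (log2 fold change 0.88, SE 0.13, adjusted p = 2.61e-06). miR-540-3p (chr12:109586122-109586141) had 594, 608 and 613 CPM in deletion iN, against 354, 335 and 379.5 CPM in control iN (log2 fold change 0.76, SE 0.11, adjusted p = 8.49e-07). The groups did not overlap for either. miR-673-5p, miR-341-3p and miR-370-3p rose by 0.62 on the log2 scale (adjusted p = 1.71e-04), 0.58 on the log2 scale (adjusted p = 2.69e-04) and 0.57 on the log2 scale (adjusted p = 1.58e-04). miR-673-3p, at under 13 CPM, lost its call without each of the 6 libraries in turn. The 1 fall was that of miR-431-5p, -0.44 on the log2 scale (adjusted p = 0.00126), which is named because it was the single fall. With scaling to all counts 5 rose and 6 fell, with a median of -0.03, and with scaling to the counts other than mitochondrial 5 rose and 2 fell, so the direction of this group depends on the scaling.

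Host genes, whose RefSeq span holds the hairpin on the same strand, were read from the RNA-seq libraries of the same groups, in which 25.6% of 16028 genes passed the same threshold. Of the 126 called microRNAs, 33 lay on the strand of a tested host gene, giving 35 pairs. The host passed in 15 pairs, in the direction of its microRNA in 14 and against it in 1. Some hosts stand in more than 1 pair: counted once each, 12 of 29 hosts passed. Rian, the host of miR-1188-5p, miR-341-3p and miR-370-3p, rose in deletion iN (log2 fold change 0.27, SE 0.06, adjusted p = 0.00444), with 1105, 1261 and 1166 CPM in deletion iN, against 989.8, 912 and 1028 CPM in control iN. Usp29, the host of miR-3099-3p, had 82.4, 87.3 and 98.6 CPM in deletion iN, against 63.9, 66.3 and 69.8 CPM in control iN (log2 fold change 0.42, SE 0.07, adjusted p = 3.34e-04). Copz2, the host of miR-152, rose by 0.74 and Mest, the host of miR-335, fell by 0.21 on the log2 scale. Huwe1, which holds a let-7f hairpin, did not pass (log2 fold change 0.11, SE 0.05, adjusted p = 0.116).

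Both arms were tested for 84 hairpins outside the cluster. Both passed for 9 of them, and in all 9 the arms moved the same way, 6 up and 3 down. A further 29 had 1 arm that passed. Over all 381 microRNAs outside the cluster and miR-3072, 33.1% passed. Over all 84 hairpins, whatever their test, the arms had the same sign in 49.

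Few microRNAs outside the cluster have the seed of a deleted one. Among 323 tested with 1 RefSeq sequence, 3 shared bases 2 to 8 with any of 47 cluster microRNAs. miR-344d-3p, with the seed of miR-410-3p, had 270.2, 226 and 215 CPM in deletion iN, against 150.1, 172 and 195 CPM in control iN (log2 fold change 0.46, SE 0.15, adjusted p = 0.013), and lost its call without each of 3 libraries in turn. miR-410-3p itself had 0, 0 and 0 CPM in deletion iN, against 82.2, 100.1 and 86.2 CPM in control iN. miR-362-3p, with the seed of miR-329-3p, was at 0.07 on the log2 scale (adjusted p = 0.865), and miR-370-5p, with that of miR-1193-3p, at 0.59 on the log2 scale (adjusted p = 0.0809).

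The same deletion was measured in undifferentiated ESC, with 3 libraries per group. Outside the cluster, 21 of 398 passed (5.28%), 11 higher (2.76%) and 10 lower (2.51%) in deletion ESC. Of 22 tested there between Meg3 and the cluster, 0 rose and 4 fell, with a median of -0.19 beside 0.02 over all 398. The deletion effect itself differed between iN and ESC for 30 of 486 microRNAs (6.17%) in 1 fit of all 12 libraries. Of these, 11 were more positive in iN (2.26%) and 19 more negative (3.91%), and 10 named microRNAs were among the 30. The count was 19 without deletion iN replicate B, 17 without control iN replicate A and 18 without control ESC replicate A. For miR-429-3p the log2 fold change was -1.67 in iN and -0.22 in ESC, a difference of -1.49 (SE 0.22, adjusted p = 0.00139). For miR-20b-5p it was -1.42 in iN and 0.04 in ESC, a difference of -1.50 (SE 0.26, adjusted p = 0.00252). For miR-34a-5p it was -1.25 in iN and -0.36 in ESC, a difference of -0.92 (SE 0.16, adjusted p = 0.00252). The difference for miR-302d-3p did not pass, with -1.36 in iN and -0.84 in ESC (difference -0.55, SE 0.31, adjusted p = 0.347). The miR-216 and miR-217 strands had too few counts in ESC to be tested there.

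**Figure D5:**
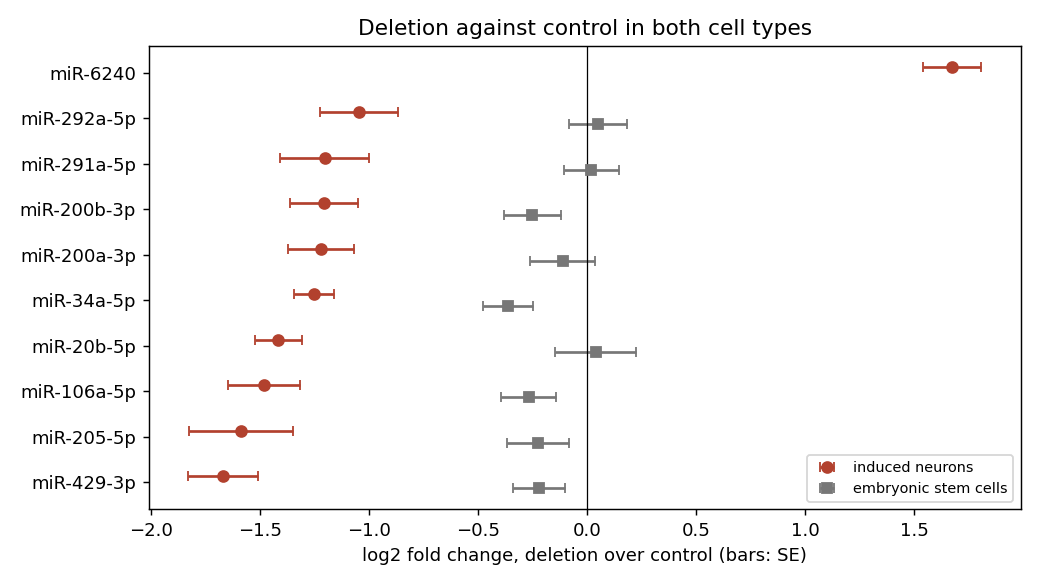
Log2 fold change of deletion over control (x axis, bars give SE) in induced neurons and embryonic stem cells for the 10 named microRNAs whose effect differed between the cell types. Of these, 9 fell in induced neurons with ESC values between -0.36 and 0.05; miR-6240 has no ESC point because it was not tested there alone.

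The authors' deposited table of the same comparison gave 50 positive and 34 negative rows past an adjusted p of 0.05 among 476 rows outside the cluster and miR-3072. In the authors' deposited table, miR-34a-5p had a log2 fold change of -1.20, miR-429-3p of -1.62 and miR-216a-5p of 1.57. Of the 53 named microRNAs outside the cluster that passed here, 49 were matched to 1 row with an adjusted p in the authors' deposited table, and 14 of these did not pass there. In the authors' deposited table, the adjusted p-values of the 14 lay between 0.0516 and 0.497, and their log2 fold changes had the same sign as here. They were miR-1251-5p, miR-30c-2-3p, miR-152-5p, miR-191-5p, miR-673-3p, miR-370-3p, miR-212-3p, let-7d-3p, miR-291b-5p, miR-290a-5p, miR-615-3p, miR-497a-5p, miR-322-5p and miR-199b-5p.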

How the data were processed

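Small RNA-seq was made from total RNA with a QIAseq miRNA kit, per the labels' protocols. Per the submitters' processing notes, cutadapt 1.4.2, STAR 2.4.1d, RSEM 1.2.30 and DESeq2 were used on mm10. The deposited files hold RSEM expected counts per feature, which were summed over copies of 1 mature accession and rounded. These files identify mature microRNAs by accession. Names came from 2 deposited comparison tables, whose mean normalised signal was matched to means rebuilt from the count files; 828 of the 1907 accessions got a name. The log2 fold changes and adjusted p-values printed from the authors' deposited table are the authors' own. Rows were tested with edgeR 4.0.16 (quasi-likelihood, R 4.3.3) with TMM over mature microRNAs, filterByExpr with a minimum count of 10 and Benjamini-Hochberg adjustment. RNA-seq expected counts were tested the same way. DESeq2 1.42.0 was an alternative. Named microRNAs outside the cluster are the 15 largest rises and falls among non-overlapping calls averaging 4 or more in log2 CPM, the 12 most abundant, and up to 6 upstream, 4 per list and 6 by shared seed; others are named in counts or as arms. Members and lists were chosen with earlier results of these data known. Scripts were tested on simulated data. Whether same-letter libraries were paired could not be told from their deviations. Ago2 CLIP and ESC RNA-seq were not used here.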

Additional observations from a re-analysis of the deposited data

Results flagged for a closer look

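The deletion effect differed between iN and ESC, by the interaction term of edgeR's quasi-likelihood test over all 12 small RNA libraries, for 10 of the named microRNAs outside the cluster. As iN minus ESC on the log2 scale, the differences were -1.49 for miR-429-3p, -1.40 for miR-205-5p, -1.25 for miR-106a-5p, -1.50 for miR-20b-5p, -0.92 for miR-34a-5p, -1.15 for miR-200a-3p, -0.99 for miR-200b-3p, -1.27 for miR-291a-5p, -1.14 for miR-292a-5p and 2.71 for miR-6240. Adjusted p-values were between 0.00139 and 0.0118. miR-6240 did not pass the minimum on counts in ESC, so it has no ESC fold change of its own. Without 1 library at a time, 17 to 37 microRNAs outside the cluster passed this test, against 30 with all of them.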

How the results depend on the processing

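Outside the cluster, 73 rises and 53 falls were called, with p-values adjusted together with those of the cluster. The rises numbered 43 with all 12 small RNA libraries in 1 fit, 32 with scaling to all counts, and, in alternatives chosen after seeing the data, 47 with scaling to counts other than mitochondrial and 116 with scaling to small nucleolar RNA. The falls numbered 126 with scaling to all counts and 34 with scaling to small nucleolar RNA. Leaving out 1 library gave 42 to 74 rises and 39 to 58 falls; without control iN replicate A or B the rises were 42. In the cluster, 50 to 54 falls were called without 1 library. The differences between iN and ESC numbered 30, 46 with scaling to all counts and 17 to 37 without 1 library, with 19 without deletion iN replicate B, 17 without control iN replicate A and 18 without control ESC replicate A. The share of mature microRNAs differed by -8.58 to -7.75 percentage points and that of mitochondrial features by 7.84 to 8.74 without 1 library. The cause of these movements was not tested. With scaling to all counts 9 named microRNAs changed sign, 8 that did not pass with TMM and miR-191-5p, which stood at -0.023. No other named microRNA called with TMM changed sign under any alternative run, while up to 4 uncalled ones did under the others. Over all 126 calls outside the cluster, 85 were kept with scaling to all counts and 5 changed sign, miR-191-5p among them. With all 12 small RNA libraries in 1 fit, 83 of the 125 calls tested there were kept. Of the named microRNAs, 18 lost their call without at least 1 library. Deviations of same-letter libraries from their group means correlated at -0.14, 0.08 and -0.12, and those of other-letter libraries at -0.08 to 0.19. With 3 libraries per group these values cannot tell whether a letter marks a shared preparation. With a replicate block 78 rises and 51 falls were called, and the interaction gave 25. Depth limits the rarest members: 573 microRNAs had counts in these libraries but too few to test.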
